A study of Mus musculus with 2 samples.

Results

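Occupancy of TBP, the TATA-binding protein, was examined over the mouse gene Pou5f1 and its upstream enhancers. The locus was taken by position, on chromosome 17 of build mm8 from 35105000 to 35125000, which is 20 kb or 200 bins of 100 bp out of 22662530 such bins in the mapped genome. Pou5f1 lies on the plus strand there, with its start near 35114104 and its end near 35118822. The rule uses position alone, though it was chosen with earlier results of these data known. Distances below are in bp from that start, with a minus sign for upstream.

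Pou5f1 encodes Oct4, a POU-family transcription factor that binds the octamer motif and is needed to keep embryonic stem cells pluripotent. Its expression is controlled by a promoter and by a pair of upstream elements, the distal enhancer, which is the one mainly used in naive embryonic stem cells, and the proximal enhancer, which is mainly used in the later epiblast. TBP is the subunit of the general factor TFIID that recognises the TATA box, and it takes part in transcription by RNA polymerases I, II and III. It is also recruited to promoters without a TATA box.

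The data were 2 ChIP-seq libraries of 1 group, called B2 (replicate 1) and B6 (replicate 2) after their labels. Both came from V6.5 cells, an embryonic stem cell line of a C57BL/6-129 cross that is normally kept on irradiated fibroblast feeders, and both used Abcam AB818 against TBP. Cells had grown without feeders for 2 passages before B2 and for 1 before B6, and DNA carried over from feeders was not measured. Whether B2 and B6 stem from separate cultures is not stated, so p-values and spreads may be technical. There were 15887305 distinct reads in B2 and 2856259 in B6, where distinct means 1 read per position and strand. A control library made with no antibody was not used here, and the files hold DNA positions only, so markers of cell identity could not be read from them.

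The promoter is shown first because the strongest signal lay on it. RefSeq's table of promoters for GRCm38.p6 gives 2 starts for Pou5f1, and the sequence at the first of them, chr17:35505782-35506081 on the plus strand, runs 5′ to 3′ from 250 bp before the start. Capitals mark a GC box, GGGCGG, and a nuclear receptor half-site, AGGTCA.
Pou5f1 start 1: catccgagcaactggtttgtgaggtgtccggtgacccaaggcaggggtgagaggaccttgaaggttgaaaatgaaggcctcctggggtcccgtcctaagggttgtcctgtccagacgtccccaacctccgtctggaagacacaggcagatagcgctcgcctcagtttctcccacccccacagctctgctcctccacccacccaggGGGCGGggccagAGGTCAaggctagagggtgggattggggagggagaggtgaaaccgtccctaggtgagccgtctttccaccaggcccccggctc

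Short motifs were searched on both strands of this window. The GC box, to which Sp1-family factors bind, was found once, from -45 to -40, and is present in 35.7% of the 32851 promoter windows of the same length in the table. The half-site AGGTCA was found from -33 to -28 and is present in 16.3% of them. CCAAT was found on the minus strand from -12 to -8 and is present in 37.4%. The letters TATAAA, the core of the TATA box, did not occur in the window, and they occur in 13.6% of promoters. GC content was 62.7%, against a median of 52.7%. The motif matches do not overlap each other. These positions belong to GRCm38.p6 and were not carried over to mm8, so no read was assigned to a single motif.

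TBP reads rose above the surrounding chromosome in both libraries at the promoter and the stretch of the distal enhancer. On fewer reads they did so at a place inside the gene and over the window of the proximal enhancer. Each bin of 100 bp of the genome was compared with the 500 kb on either side by an exact one-sided Poisson test, adjusted by Benjamini-Hochberg over all bins, with a threshold of 0.05. Of the 200 bins of the locus, 6 passed in both libraries. That is 3%, against 0.148% of all bins of the genome and 0.841% of the 9160 bins of the flanks. B2 alone called 11 further bins and B6 alone called 1. In all, B2 called 17 bins (8.5%, genome 0.433%) and B6 called 7 (3.5%, genome 0.185%). The 6 shared bins were 3 at the promoter, 2 at the distal enhancer and 1 inside the gene. With no control library, the part of general repeatable pile-ups of reads in these counts was not tested. B2 thinned to the read number of B6 shared 3 called bins with B6, so the count depends on depth.

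**Figure D1:**
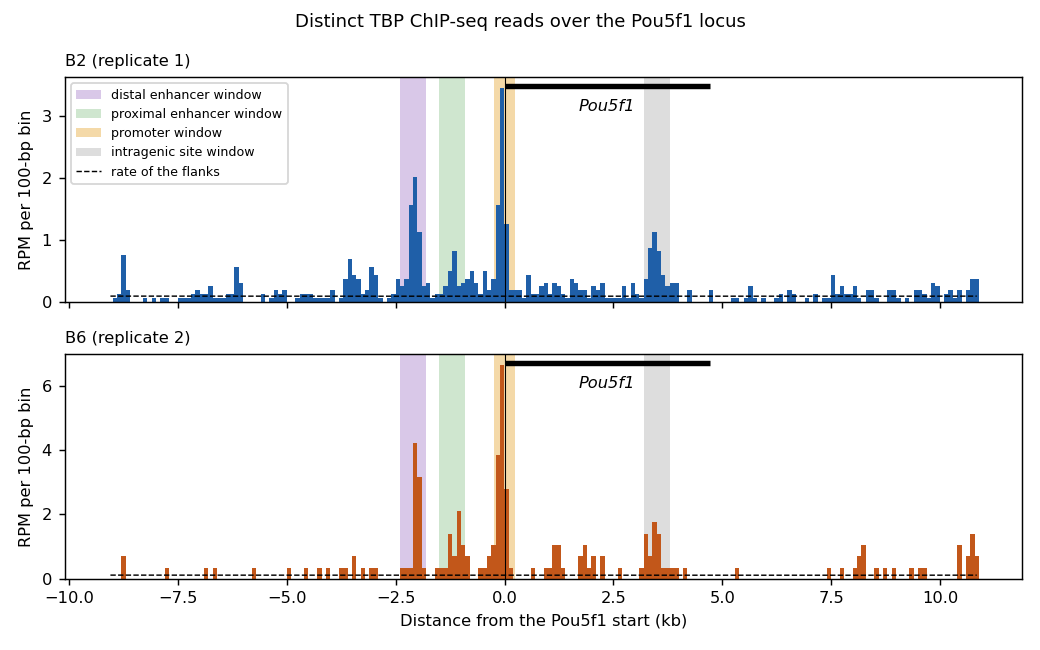
RPM, the distinct reads scaled to the library's total of them, in each bin of 100 bp, against distance from the Pou5f1 start in kb, with B2 above and B6 below, each on its own scale; the dashed line is the mean rate of the flanks and the black bar the gene. In both libraries the highest bin starts at -104, with 55 reads in B2 and 19 in B6, and the next peak is that of the distal enhancer.

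The flanks themselves were denser than the genome. They held 1.51 distinct reads per 100 bp in B2 and 0.318 in B6, against 0.701 and 0.126 over the mapped genome. All folds below are relative to the flanks unless stated, with exact 95% intervals. These cover counting error alone, because copies made by PCR were not marked and cannot be told from independent fragments of the same position.

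The core promoter held the highest signal of the locus. The bin from 35114000 to 35114099, which starts at -104, held 55 distinct reads in B2 where 1.5 were expected (36.6-fold, adjusted p = 8.58e-61 by the exact Poisson test). In B6 the same bin held 19 where 0.316 were expected (60.1-fold, adjusted p = 1.41e-23 by the exact test). It was the highest bin of the locus in each library. The bin before it, at -204, held 25 reads in B2 and 11 in B6, and the bin at -4, which contains the start, held 20 and 8. The next bin downstream, at 96, was not called in either library, with 3 reads in B2 and 1 in B6. In B2 that bin also held 6 reads with 2 alignments, which are outside these counts. Such reads made up 44.7% of all reads in the first 300 bp of the gene in B2 and 57.9% in B6, so the edge of the signal on that side is not well measured.

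Over the promoter window, from 250 bp before to 249 bp after the start, B2 held 109 distinct reads and B6 held 40. The density was 14.4-fold (interval 11.8 to 17.4) over the flanks in B2 and 25.2-fold (17.9 to 34.4) in B6, a mean of 19.8 ± 7.60 (SD, n = 2). The intervals do not overlap, and the fold in B6 was 1.74 times that in B2 (interval 1.18 to 2.53). Both libraries therefore show the promoter above the flanks, and B6 shows it with a higher contrast. Duplicates made up 12.8% of the B2 reads and 2.44% of the B6 reads in the window.

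The distal enhancer gave the second peak. Its window, from -2400 to -1801, was set from the known distance of the element and holds 600 bp. B2 held 89 distinct reads there, 9.82-fold over the flanks (interval 7.88 to 12.1). B6 held 25, which is 13.1-fold (8.47 to 19.4), and the mean over libraries was 11.5 ± 2.33 (SD, n = 2). The signal was narrow within the window. The bin from 35112000 to 35112099, at -2104, held 32 reads in B2 (adjusted p = 1.12e-27) and 12 in B6 (adjusted p = 4.55e-12, exact Poisson test). The bin at -2004 held 18 and 9 (adjusted p = 5.50e-11 and 1.12e-07, exact Poisson test). The bin at -2204 was called only in B2, where it held 25 reads, while B6 held 1. Between this enhancer and the proximal one, from -1800 to -1501, the counts were 7 and 1, where 4.53 and 0.953 were expected.

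The proximal enhancer carried less signal than the distal one in B2, and in B6 its fold was lower but with overlapping intervals. In its window, from -1500 to -901, B2 held 38 distinct reads, 4.19-fold over the flanks (interval 2.96 to 5.76), and B6 held 17, which is 8.92-fold (5.19 to 14.3). The mean was 6.55 ± 3.34 (SD, n = 2), so the spread between libraries was large beside the mean. No bin of this window was called in both libraries with the settings above. The bin at -1304 was called in both with the genome-wide rate as background, and with called regions left out of the flanks. With bins of 200 bp, the bin starting at -1304 was also called in both. In B2 the bins at -1304 and -1204 passed, with 8 and 13 reads. In B6 the bin at -1104 passed, with 6 reads, where B2 held 4. The stretch from there to the promoter window, -900 to -251, lay 3.26-fold over the flanks in B2 (2.23 to 4.60) and 3.87-fold in B6 (1.67 to 7.64), and B2 alone called bins at -804 and -504 in it, with 8 reads each.

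A further peak stood inside Pou5f1, towards its end. The window from 3200 to 3799 was drawn after the values had been seen and therefore only describes the peak. B2 held 61 distinct reads in it, 6.73-fold over the flanks (interval 5.14 to 8.65), and B6 held 17, which is 8.92-fold (5.19 to 14.3). The bin at 3396 was called in both libraries, with 18 reads in B2 (adjusted p = 4.93e-11) and 5 in B6 (adjusted p = 0.0128, exact Poisson test). The bins at 3296 and 3496 passed in B2 alone, with 14 and 13 reads, where B6 held 2 and 4. This shared call was lost with bins of 50 bp, at an adjusted p of 0.001 and with B2 thinned to the depth of B6. Against the proximal enhancer, density was 1.61 times as high in B2 (interval 1.05 to 2.47), while B6 held 17 reads in each window (interval of the ratio 0.480 to 2.08). RefSeq's second start of Pou5f1 lies 2775 bp after the first in GRCm38.p6, and no bin between -4 and 3296 was called in either library.

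The rest of the gene was lower. Between the promoter window and the intragenic peak, from 250 to 3199, density was 1.95-fold over the flanks in B2 (1.56 to 2.41) and 2.35-fold in B6 (1.47 to 3.56). From 3800 to the gene's end it was 0.936-fold (0.498 to 1.60) and 1.03-fold (0.212 to 3.0). Reads in that stretch often aligned at 2 places, and B2 held 10 of them there beside 13 with 1 alignment. Over the whole gene body past the promoter window the mean was 2.67 ± 0.405 (SD, n = 2), of which the intragenic window held 61 of 161 reads in B2 and 17 of 42 in B6. Downstream of the gene, as far as 10895, B2 stood at 1.11-fold (0.910 to 1.35) and B6 at 1.32-fold (0.864 to 1.94).

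Upstream of the distal enhancer the libraries parted. B2 called the bins at -3604 and -3104, with 11 and 9 reads, and B6 held 0 and 1 there. In the stretch from -3800 to -3001, also drawn after the values were seen, B2 held 45 reads, 3.72-fold (2.71 to 4.98), and B6 held 6, 2.36-fold (0.865 to 5.14). B2 also called single bins at -6204 and -8804, with 9 and 12 reads against 0 and 2 in B6. Over the whole stretch upstream of -2400, B2 was at 1.45-fold (1.22 to 1.71) and B6 at 0.798-fold (0.464 to 1.28), and the ratio of B6 to B2 was 0.550 (interval 0.312 to 0.911). No bin there was called in both libraries. The lowest bin called in B6 held 5 reads, 16.0-fold over its flanks, so bins at the 5.92-fold to 7.84-fold seen here in B2 were not detectable at the depth of B6.

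**Figure D2:**
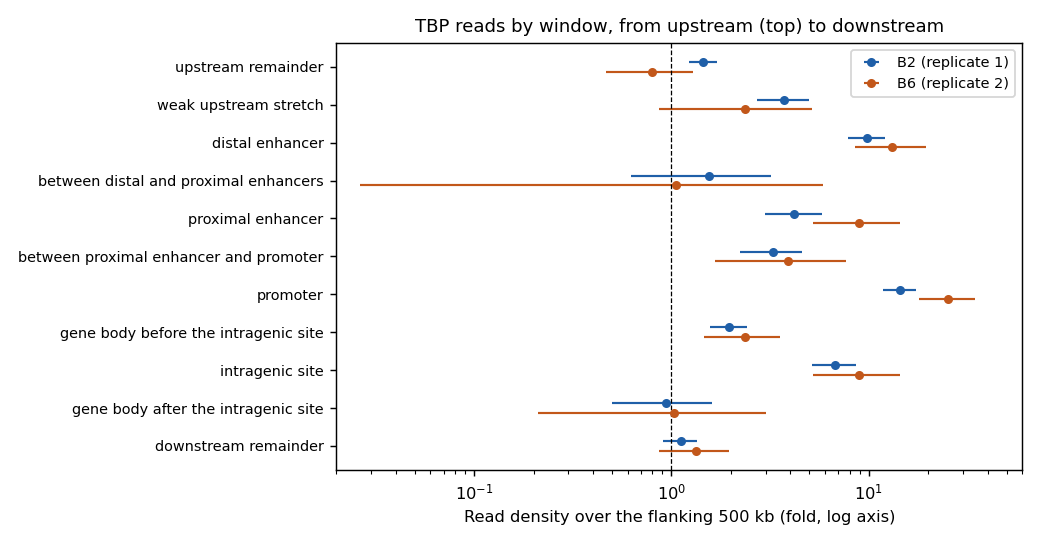
Fold of read density over the flanking 500 kb on a log axis for the windows of the locus in order along the chromosome; points are libraries, bars are exact 95% intervals and the dashed line marks the level of the flanks. The promoter is highest in both libraries (14.4 in B2 and 25.2 in B6), followed by the distal enhancer (9.82 and 13.1).

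The balance between promoter and distal enhancer was compared between the libraries, since depth cancels in it. Read density at the promoter was 1.47 times that at the distal enhancer in B2 (interval 1.10 to 1.97) and 1.92 times in B6 (1.14 to 3.30). A two-sided Fisher's exact test of the 2 windows by the 2 libraries gave p = 0.389, with an odds ratio of 1.31. The difference between the libraries was thus within counting error, while the promoter exceeded the distal enhancer in each. Against the proximal enhancer, the promoter was 3.44 times as dense in B2 (2.36 to 5.12) and 2.82 times in B6 (1.56 to 5.31). The distal enhancer exceeded the proximal one 2.34 times in B2 (1.59 to 3.52). In B6 the same ratio was 1.47 (0.763 to 2.90), an interval that includes equality. Against the intragenic peak the promoter was 2.14 times as dense in B2 and 2.82 times in B6.

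Unmoved ends of the 2 strands were offset at these sites. At the promoter region the median end of plus-strand reads stood at -111 in B2 and of minus-strand reads at -20, a distance of 91 bp with a midpoint at -65.5. In B6 the medians were -114 and -56, a distance of 58 bp with a midpoint at -85. At the distal enhancer B2 gave a distance of 75 bp and B6 one of 145.5 bp, with midpoints at -2071.5 and -2016.25. Inside the gene it was 149 bp and 213.5 bp, the last from 5 plus-strand and 6 minus-strand reads. Reads were picked by their ends after the move of 60 bp inward. That choice alone puts unmoved plus-strand ends upstream of minus-strand ends, even for evenly spread reads. These distances therefore cannot tell whether a place was bound.

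**Figure D3:**
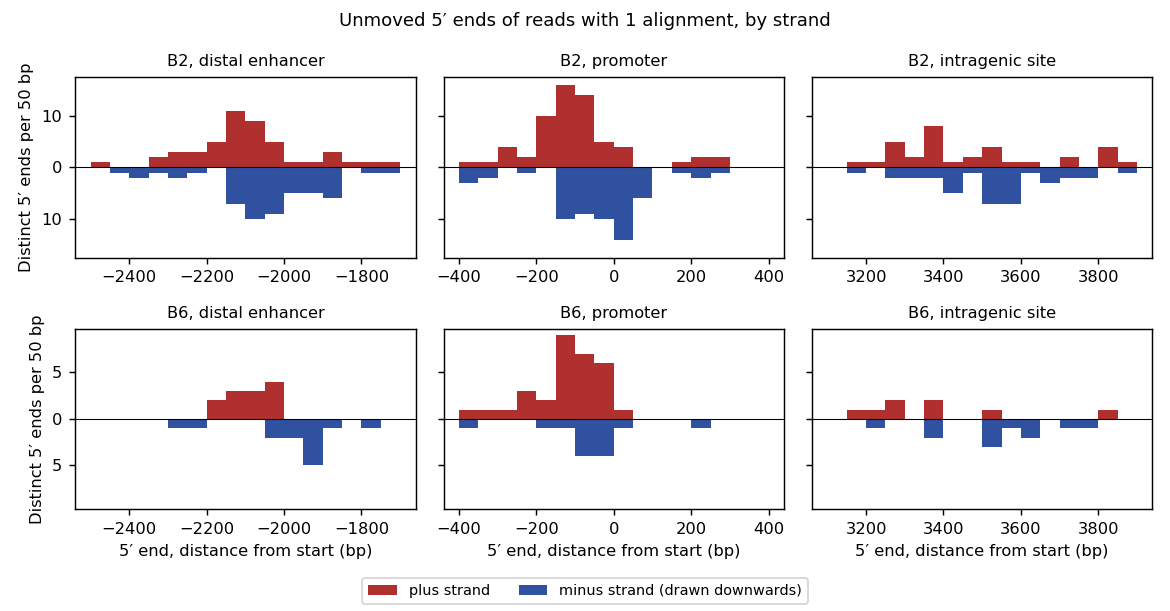
Unmoved 5′ ends of distinct reads with 1 alignment, per 50 bp, at the distal enhancer, the promoter and the intragenic peak, with B2 in the upper row and B6 in the lower; plus-strand ends point up and minus-strand ends down. Plus-strand ends lie upstream of minus-strand ends at each site, and at the promoter in B6 few minus-strand ends follow the start.

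Reads with 2 alignments touched the promoter on 1 side. In the promoter window, B6 held 29 plus-strand and 11 minus-strand reads with 1 alignment, and B2 held 56 and 53. Of unmoved minus-strand ends in the first 250 bp of the gene, B6 had 2 among reads with 1 alignment and 12 among reads with 2, and B2 had 23 and 10. With both kinds of read together, the minus strand made up 42.6% of the B6 reads in the promoter window, against 27.5% with 1 alignment alone. In B2 these shares were 50.4% and 48.6%. The moved reads of the first 300 bp of the gene included 17 with 2 alignments in B2, where 0.623 were expected from the flanks, and 11 in B6, where 0.128 were expected. The flank rate ignores where sequence is repeated, so this excess is not a measure of TBP binding.

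Reads with 2 alignments over Pou5f1 came in 3 clusters, at the start, late in the gene and at its end. The lists do not pair a read's 2 alignments, so the second place was inferred from matching ends. For the clusters at the start and late in the gene, the best-matching places lay on other chromosomes. Pou5f1 has processed pseudogenes on several chromosomes. A read is listed at both its alignments, so ends at a constant distance elsewhere mark the likely copy. Of 30 such reads near the start (17 in B2 and 13 in B6), 11 matched ends on chromosome 3 between 129425626 and 129425946. That stretch held 18 reads with 2 alignments. Of the same 30, 8 matched chromosome 3 between 3814596 and 3814916, where these were all of the 8 reads in the stretch. Each place was matched separately, so the 8 and the 11 may share reads, and no chance level of such matches is given. Pou5f1-rs4 and Gm2071 are the copies that the RefSeq table places on chromosome 3. Of 8 reads late in the gene, 5 matched all 5 reads on chromosome X between 49123972 and 49124352, and Pou5f1-rs8 is the copy on X. The next best place for the late cluster matched 4 reads, so that match is a weak one. Near the start the next best places matched 8 of 30 but held 25 reads each. Positions are those of mm8 and were found after the data had been seen; the pseudogenes' own positions were not compared, only their chromosomes. Such reads do not tell which copy was bound.

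**Figure D4:**
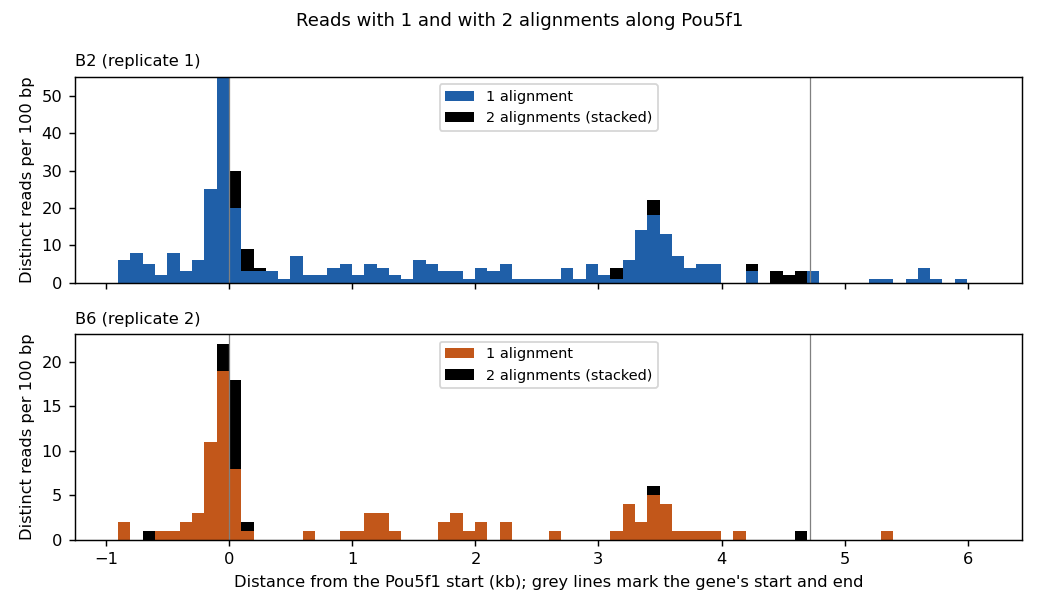
Distinct reads per 100 bp along Pou5f1 for B2 above and B6 below, with reads of 2 alignments in black on top of those with 1 alignment, against distance from the start in kb. In the bin at -4, B2 holds 20 reads with 1 alignment and 10 with 2, and B6 holds 8 and 10; over the whole gene, reads with 2 alignments number 34 and 13.

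Stretches without any read with 1 alignment also lay at and after the gene's end. In B2 the longest 2 ran from 4786 to 5274 (489 bp, 7.39 reads expected) and from 4294 to 4763 (470 bp, 7.10 expected). In B6 the longest ran from 5379 to 7409 (2031 bp, 6.45 expected). B2 held reads with 1 alignment within that stretch, among them 4 in the bin at 5596 and 3 in that at 6496. The authors' aligner settings removed reads with over 2 alignments, and their part in these gaps was not tested. Reads with 2 alignments were present in part of them, since the B2 bins at 4396, 4496 and 4596 held 3, 2 and 3 of these and none with 1 alignment.

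Among called regions genome-wide, the Pou5f1 promoter stood above the median but not near the top. Regions were built from windows of 200 bp with a local background at a Poisson p of 1e-09. The promoter region ran from 35113851 to 35114250 (-253 to 146) and was called in both libraries. Its highest window, centred at -53 in each library, held 83 reads or 5.22 RPM in B2 and 33 reads or 11.6 RPM in B6. That is 1.43 and 1.5 times the median of the 6444 regions called in both. It ranked 1556 of these in B2, 1367 in B6 and 1404 by the mean (8.39 ± 4.48 RPM, SD, n = 2), so 21.8% of regions were higher by the mean.

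The other regions of the locus were called in B2 alone. That of the distal enhancer ran from 35111851 to 35112200 and reached 3.71 RPM in B2 and 7.35 in B6. Its best window in B6 held 21 reads where 4 were expected from the nearest 5 kb, which include the promoter peak, and its p of 1.92e-09 (exact Poisson) missed the threshold by a small margin. In B2, 26.2% of the 12812 regions were higher. That set is wider than the one used for the promoter, which ranked 1584 in it. Set against regions called in both libraries, the distal enhancer lay close to the median in B2 (3.65 RPM) and below it in B6 (7.70 RPM). The intragenic region ran from 35117401 to 35117700 and reached 2.27 RPM in B2 and 3.15 in B6, with 57.8% of B2 regions above it. Its best window in B6, with 9 reads, had an exact Poisson p of 0.000682, far from the threshold.

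**Figure D5:**
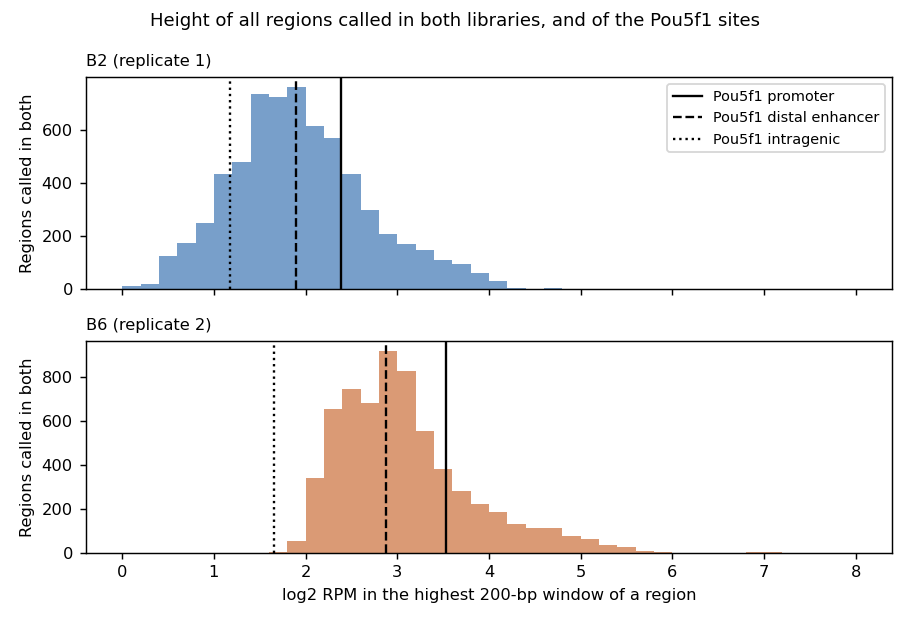
Number of regions called in both libraries by the log2 RPM of their highest 200-bp window, with B2 above and B6 below; lines mark the Pou5f1 promoter (solid), distal enhancer (dashed) and intragenic peak (dotted). The promoter, at 5.22 RPM in B2 and 11.6 in B6, lies above the median of each distribution, and the intragenic peak, at 2.27 and 3.15, lies below it.

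The share of reads from B6 did not pass the test at any of these 3 regions. A two-sided exact binomial test set each region's share against 26.95%, the share of B6 over regions called in both libraries, and 3.21% of all 13097 regions passed at an adjusted p of 0.05. At the promoter B6 gave 40 of the reads against 106 from B2, or 27.4% (interval 20.3 to 35.4, adjusted exact p = 0.998). At the distal enhancer it was 21.8% (14.2 to 31.1, adjusted exact p = 0.586) and at the intragenic peak 19.3% (10.05 to 31.9, adjusted exact p = 0.551). These regions were called in B2 alone, which favours a low share of B6. The share they were set against comes from regions that also passed in B6. Their tests therefore cannot decide whether the libraries differ there. Against the share expected from total depth, 15.2%, the promoter passed (adjusted exact p = 0.000964), as did 43.6% of all regions. The distal enhancer (adjusted exact p = 0.131) and the intragenic peak (adjusted exact p = 0.472) did not. The interval at the promoter includes the share of regions called in both libraries.

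Regions called in both libraries lay on either side of Pou5f1. By order in the RefSeq table, its coding neighbours are H2-Q10, a class I histocompatibility gene, on 1 side and Tcf19 and Cchcr1 on the other. Within the 500 kb on either side, 16 regions were called in both libraries, 5 upstream and 11 downstream, and 5 of the 16 were higher than the promoter by mean RPM. These flanks had 916 kb with reads, and the genome had 6444 such regions in 2266 Mb with reads. The difference between the sides was not tested, and the length with reads was not taken for each side. The nearest upstream ended at -264054 and reached 4.28 RPM in B2 and 5.95 in B6. The nearest downstream, from 10897 to 11196, lay just outside the locus and reached 1.95 and 4.90. The 3 highest downstream started at 410647, 334997 and 331997, with means of 17.9, 13.8 and 11.9 RPM. The 3 highest upstream started at -270453, -341253 and -505403, with means of 5.91, 5.90 and 5.58, below the 8.39 of the promoter. Genes were not assigned to these regions, since no annotation of mm8 was used.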

How the data were processed

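TBP ChIP-seq reads of 2 libraries were used as deposited lists of signed positions on mm8, values of a kind other than counts or normalised signal. Per the labels' protocols, chromatin of about 500 bp was sonicated, amplified for 18 cycles and cut from a gel at 150 to 350 bp (B2) or 150 to 300 bp (B6). Per the file headers, reads were aligned with Bowtie, version not given in the sources used here (-e 70, -k 2, -m 2, -n 2; seed 36 for B2, 26 for B6), so reads with over 2 alignments were dropped. On chromosome M the highest position plus seed length was 16299 in B2 and in B6, a check of the read lengths. Reads with 1 alignment were reduced to 1 per position and strand, and 5 prime ends moved inward by 60 bp. Bins were tested against the mean rate within 500 kb on either side without the nearest 10 kb, over 1-kb bins that held reads (2266 Mb). Windows were set against the 500 kb flanking the locus (916 kb with reads). Regions used 200-bp windows every 50 bp, the highest of genome, 5-kb and 10-kb rates, and at least 20% of reads per strand. The text names all windows set for the promoter, enhancers and gene, every called bin, every region of the locus, and in the flanks the nearest and 3 highest shared regions per side. The windows of the intragenic peak and of the weak upstream stretch were drawn after seeing the data, and all members and windows were chosen with earlier results of these data known. Python 3.11.15, NumPy 2.4.6, SciPy 1.17.1 and matplotlib 3.10.9 were used; the bin test was tested on simulated data.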

Additional observations from a re-analysis of the deposited data

Results flagged for a closer look

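Reads with 2 alignments stand outside the main measurement, and 34 were found over Pou5f1 in B2 and 13 in B6. From the flanks, 9.80 and 2.01 were expected over the same length. In the locus upstream of the gene, B2 held 3 where 18.9 were expected and B6 held 7 where 3.87 were. Downstream, B2 held 0 where 12.8 were expected and B6 held 0 where 2.63 were. Such reads fall only where a sequence occurs again elsewhere, so an excess over the flank rate is not a measure of TBP binding.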

How the results depend on the processing

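No paired analysis was possible because both libraries belong to 1 group. The settings tried were all reads kept, ends unmoved or moved by 90 bp, reads with 1 or 2 alignments, other backgrounds and other bins. Further settings were a stricter threshold for bins, a looser one for regions, thinned B2 and 1 library at a time. Those for the intragenic window were chosen after seeing the data. Called bins in both numbered 10 with the genome-wide rate and 3 with B2 thinned, and single libraries called 7 to 17. With the genome-wide rate, mean folds were 47.3 at the promoter, 15.8 at the proximal enhancer, 27.1 at the distal enhancer and 6.30 in the gene body, which follows from the denser flanks. With flanks of 50 kb the promoter and proximal enhancer stood at 25.2 and 8.44, and the distal enhancer and gene body at 14.4 and 3.35. With called regions left out of the flanks, the promoter and proximal enhancer stood at 26.3 and 8.77. The distal enhancer and gene body then stood at 15.1 and 3.51. The intragenic window stood at 9.83 with flanks of 50 kb and at 10.3 with called regions left out. Single libraries gave 14.4 to 25.2 at the promoter, 4.19 to 8.92 at the proximal enhancer, 9.82 to 13.1 at the distal enhancer and 2.38 to 2.96 in the gene body. The promoter to distal enhancer ratio was 2.14 with reads of 1 or 2 alignments. The promoter's rank was 1610 of 6995 with all reads kept, with 23.0% of regions higher, and 1367 to 1556 by single libraries. With regions called at a p of 1e-06 it was 1401 of 9484, with 14.8% of regions higher. Its B6 share, 27.4%, passed the test only against total depth. The other changes had no cause tested. The mean folds of the promoter, enhancer, gene body and intragenic windows stayed above 1 in each setting run. Depth limits B6, where a bin needed 5 reads to be called against 8 in B2.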
